A study of Mus musculus with 2 samples.

Results

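Srsf1, Hnrnpd, Pcbp2 and Ncl are 4 mouse genes that encode RNA-processing proteins, and they were examined here for RNA recovered with the epitope-tagged RNA-binding protein FAM120A from mouse embryonic stem cells. Their read clusters were taken as the rows of the deposited cluster lists that lay on the gene's strand inside fixed windows of genome build mm9. The windows held 93 of the 11670 clusters in the list from the tagged protein and 0 of the 1134 clusters in the list from the untagged protein. The 93 divided into 40 for Srsf1, 8 for Hnrnpd, 13 for Pcbp2 and 32 for Ncl. The genes were chosen by measured values, with their cluster counts, reads, ratios and junction names in these lists known, so those values are a description and support nothing about the genes.

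Binding was measured by iCLIP, in which ultraviolet light crosslinks protein to RNA and the RNA left after partial digestion is sequenced with the protein's contact positions preserved. The tagged line, TT-FHFam120a, carried FLAG-HA-Fam120a, and the control line, TT-Fam120a, carried untagged Fam120a. Both genes were delivered in the pSLIK lentiviral system and switched on with 2.5 µg/mL doxycycline. By design the control cells thus also made added FAM120A, without the epitopes. Levels of the added protein and other differences between the lines were not measured here. With 1 library in each group, no difference has a replicate check, and the groups were not tested against each other. Whether either line was a single clone was not given in the sources used here. The lists name no genes, so the labelled cell type was not checked against marker genes.

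SRSF1 is an SR protein that binds exonic sequences and promotes splicing. HNRNPD, also called AUF1, binds AU-rich elements and regulates the decay of mRNAs that carry them, and PCBP2 binds C-rich RNA and acts in mRNA stability and translation. NCL, nucleolin, is an abundant nucleolar protein with roles in ribosomal RNA transcription and processing. RNAs that encode RNA-binding proteins are themselves often regulated after transcription, among other ways by alternative splicing and by proteins bound to their untranslated regions.

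Each cluster in the deposited list carried its own reads, a log2 ratio to the other library and a p-value, from which the reads of the untagged library were recovered as whole numbers. These were multiples of a factor of 1.501, taken here as the relative depth of the libraries, and untagged reads are given before that scaling. Total depth is unknown. The list reached down to 5 reads, and the tagged-list clusters as a whole had a median of 8. Neighbouring clusters can share reads, so reads were not summed over clusters. Exons, introns and untranslated regions were not assigned, because the gene table used here belongs to build GRCm38 and not mm9. All 4 symbols were found in that table on the same chromosomes as the windows.

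The windows stood clear of other clusters. The nearest cluster of the tagged list outside a window and on its strand was 27271 nt from the Srsf1 window (6 reads), 59017 nt from that of Hnrnpd (5 reads), 35700 nt from that of Pcbp2 (5 reads) and 222111 nt from that of Ncl (5 reads). The clusters just inside the window edges were also small, with 5 reads at either edge for Srsf1, 8 and 5 for Hnrnpd, 6 and 11 for Pcbp2, and 7 and 5 for Ncl. Widening the windows by 1000 nt on each side added no cluster. The opposite strand of all 4 windows held 0 clusters in both lists. The nearest untagged-list cluster on the same strand was at least 479807 nt from any of the 4 windows.

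**Figure D1:**
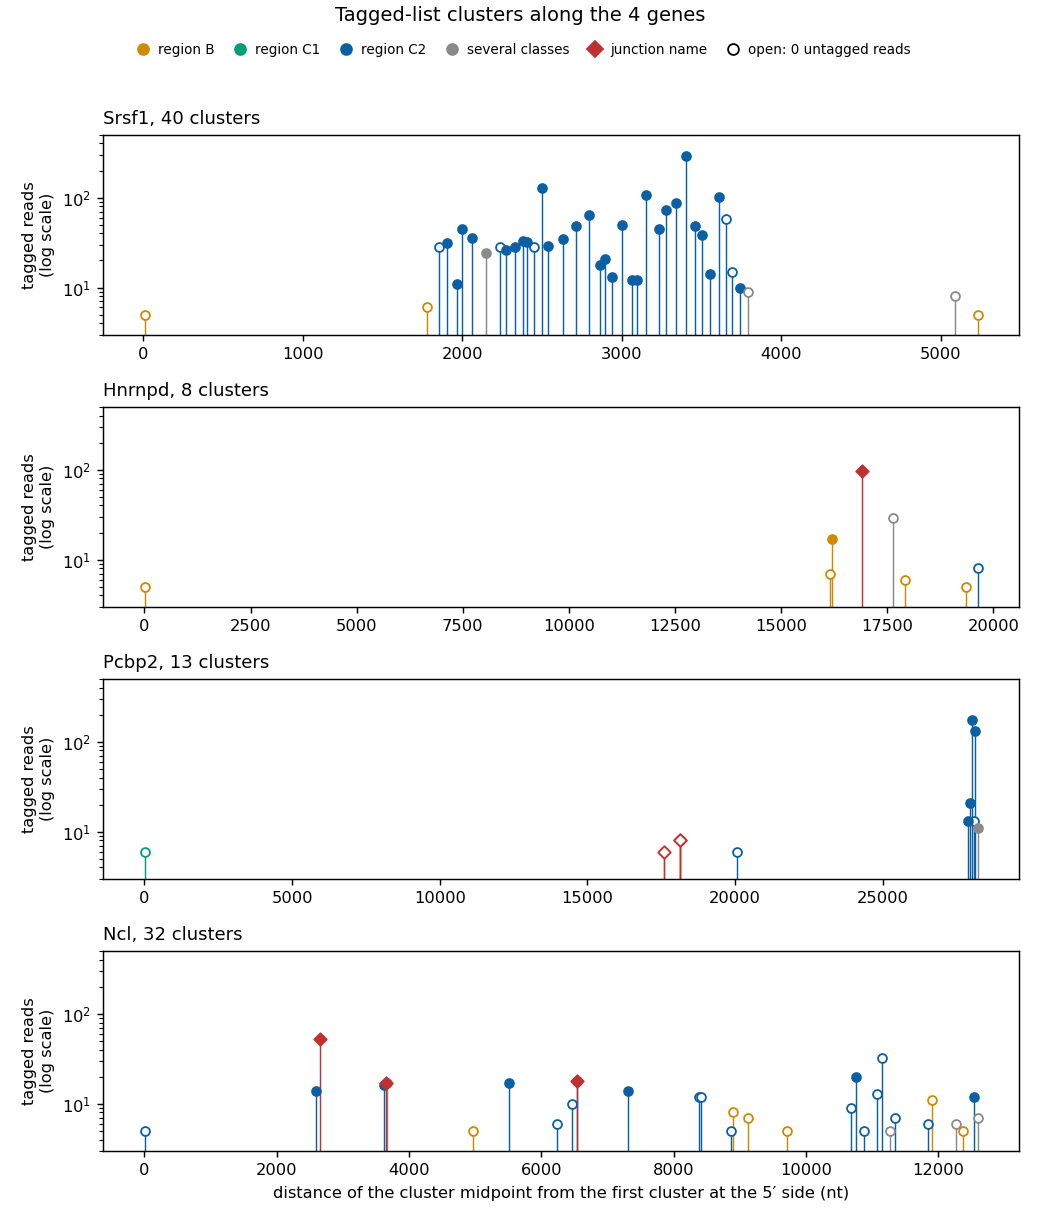
Tagged reads of each cluster (vertical axis, log scale) against the distance of its midpoint from the first cluster at the 5′ side of each gene (horizontal axis, nt, a separate scale for each gene), coloured by the name the authors gave the cluster; open symbols had 0 untagged reads. Srsf1 has a dense block of 37 clusters, Pcbp2 a short block of 6 at its 3′ side, Ncl 32 clusters along 12617 nt, and Hnrnpd 8. The tallest Hnrnpd cluster is named by a junction and drawn at its own midpoint, which lies inside the gap it spans.

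The genes differed in how tightly their clusters were packed. The clusters of Srsf1 lay on chromosome 11, plus strand, positions 87861333 to 87866574, a span of 5242 nt, and covered 1628 nt or 31.1% of it. Ncl clusters extended from 88242720 to 88255336 on the minus strand of chromosome 1 and covered 8.35% of 12617 nt when junction-named clusters were left out. Those of Hnrnpd extended from 100388109 to 100407748 on the minus strand of chromosome 5 and, likewise counted, covered 0.927% of 19640 nt. Those of Pcbp2 extended from 102301091 to 102329318 on the plus strand of chromosome 15 and covered 1.25% of 28228 nt. The median space between neighbouring clusters was 12 nt in Srsf1, 47 nt in Pcbp2, 186 nt in Ncl and 835 nt in Hnrnpd, again without junction-named clusters. With clusters at most 50 nt apart joined into stretches, the 40 clusters of Srsf1 formed 4 stretches, the 13 of Pcbp2 formed 5, the 8 of Hnrnpd formed 5 and the 32 of Ncl formed 20. In the Srsf1 block no 2 clusters touched or overlapped, so its count of stretches rests on the joining distance.

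Srsf1, the splicing regulator, had most of its clusters in 1 block. Of its 40 clusters, 37 formed a stretch of 2043 nt at positions 87863102 to 87865144. Only 4 of the 4724 loci of the tagged list, formed by joining clusters at most 1000 nt apart, held more clusters. The other 3 Srsf1 clusters were small, with 5 reads at the 5′ side, starting 1769 nt before the block, and 8 and 5 reads on the 3′ side. None of the 3 had an untagged read.

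Reads in Srsf1 clusters ran from 5 to 293 with a median of 28.5. Clusters of 20 or more reads made up 27 of 40, or 67.5%, where 17.1% of all tagged-list clusters reached 20 reads. The top cluster by reads and by listed p lay at 87864691 to 87864775, with 293 tagged and 8 untagged reads. Its depth-adjusted ratio was 24.4, with an exact 95% interval of 12.2 to 57.1 that covers counting error only. The next, at 87863810 to 87863853, had 128 reads against 3, and that at 87864462 to 87864512 had 107 against 6. A cluster at 87864919 to 87864964 had 102 reads against 2. These 4 clusters were not neighbours.

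The block was tallest in its 3′ portion. The 1000 nt with the most clusters, from 87864184 to 87865183, held 19 of the 40, with a median of 38 reads. Of the 9 Srsf1 clusters with 50 or more reads, 7 lay in this stretch, and all 9 lay between 2477 and 3641 nt from the first cluster. Low clusters lay directly beside high ones. The cluster of 293 reads was flanked by clusters of 87 and 48 reads, and 2 clusters of 12 reads each lay between neighbours of 50 and 107 reads.

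The untagged library also had reads across the Srsf1 block. It had 0 reads at 10 of the 40 clusters, or 25% (exact interval 12.7 to 41.2), where 69.9% of all tagged-list clusters had 0. The interval takes the 40 clusters as independent, although 37 of them formed 1 stretch. With 1 cluster taken from each stretch, the share was 75% of 4. The low share over the 40 follows in part from size, since every member cluster of under 10 reads, 32 of the 93, had 0 untagged reads. Untagged reads in Srsf1 reached 8, at the cluster with the most tagged reads. Among clusters of 20 or more tagged reads the untagged library had 0 at 4 of 27 in Srsf1, beside 16.1% of all tagged-list clusters of that size. Of the 4, 3 had 28 tagged reads each, 6.22-fold over a floor of 3 untagged reads once the depth factor was applied. Their exact interval of the depth-adjusted ratio began lower, at 4.73. The fourth, at 87864974 to 87864999, had 58 tagged reads, 12.9-fold over that floor, with an interval that began at 10.1. It had the highest listed log2 ratio in the 4 genes, 5.88.

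**Figure D2:**
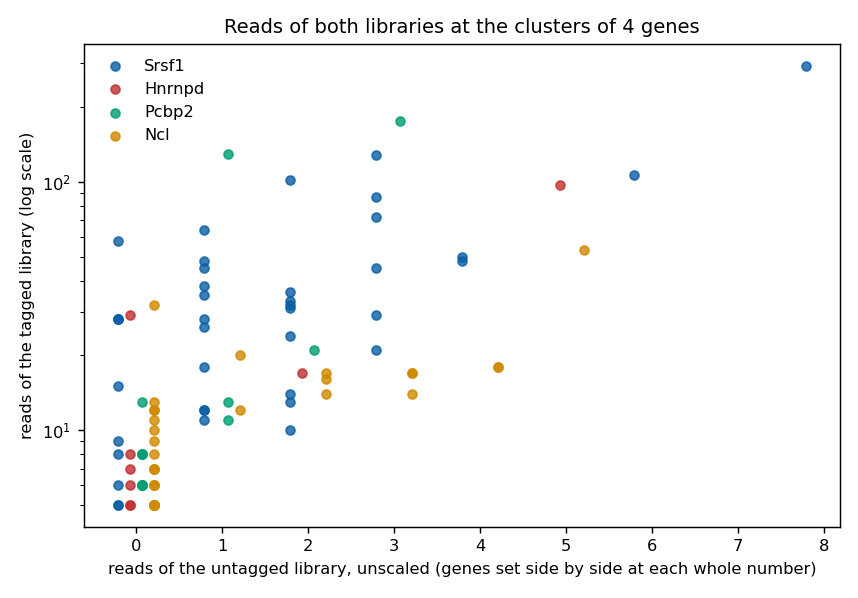
Tagged reads (vertical axis, log scale) against unscaled untagged reads (horizontal axis) at each of the 93 clusters, with the genes set side by side at each whole number of untagged reads. Untagged reads never exceeded 8; the Srsf1 and Pcbp2 clusters with over 100 tagged reads had between 1 and 8, and the Ncl clusters with 2 to 4 untagged reads stayed under 20 tagged reads.

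Hnrnpd, whose protein binds AU-rich elements, had few clusters, and most were small. Its reads per cluster were, from the 5′ side, 5, 7, 17, 97, 29, 6, 5 and 8. The untagged library had 2 reads at the cluster of 17 and 5 at that of 97, and 0 at the other 6. The cluster of 97 was named by a junction. The cluster of 29 reads, at positions 100390101 to 100390126, had 0 untagged reads. It was 6.44-fold over the floor of 3 after the depth factor, and its exact interval began at 4.91. Hnrnpd reads were thus concentrated between 100390101 and 100391619, and the first cluster, of 5 reads, was followed by 16103 nt without a cluster. The GRCm38 table lists 2 genes that overlap Hnrnpd, 4930524J08Rik and the noncoding Gm42127.

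Pcbp2, whose protein binds C-rich RNA, had its reads near the 3′ end of its window. A stretch of 354 nt at positions 102328965 to 102329318 held 6 clusters with, from the 5′ side, 13, 21, 176, 13, 130 and 11 reads. The untagged library had 1, 2, 3, 0, 1 and 1 reads there. The cluster of 176 reads, at 102329088 to 102329127, had the lowest listed p of the gene and a depth-adjusted ratio of 39.1 (exact interval 13.2 to 191). That of 130 reads, at 102329192 to 102329233, had a ratio of 86.6 with an interval of 15.3 to 3447, since it rests on 1 untagged read. The intervals of these 2 clusters overlap. The GRCm38 table lists 2 genes that overlap Pcbp2, the protein-coding Map3k12 and the noncoding Gm36331. That table gives no strand, and where these genes lie in build mm9 was not determined.

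The remaining 7 clusters of Pcbp2 had 6 or 8 reads each and 0 untagged reads. They comprised 1 at the 5′ edge, at 102301091 to 102301136, which was the only member cluster of the class the authors called region C1, 5 within 591 nt at 102318661 to 102319251, and 1 at 102321152 to 102321177. The last of these started 20061 nt from the first cluster of the gene, and the tall 3′ block started at 27874 nt.

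Ncl, the nucleolin gene, had many small clusters along its length. Its reads ran from 5 to 53 with a median of 10.5, and 3 of its 32 clusters had 20 or more reads. The cluster with the lowest listed p, at 88244163 to 88244224, had 32 reads against 0. It was 7.11-fold over the floor of 3 after the depth factor, and its exact interval began at 5.45. The cluster with the most reads, 53 against 5, was named by a junction. No other cluster of Ncl had over 20 reads, and 15 had under 10. Its densest 1000 nt, from 88243965 to 88244964, held 7 clusters with a median of 9 reads.

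Untagged reads were unevenly placed along Ncl. A space of 1027 nt without clusters divided a 3′ locus of 19 clusters, positions 88242720 to 88246961, from 13 clusters on its 5′ side. The untagged library had reads at 9 of the 13 and at 2 of the 19. Among clusters of 10 or more tagged reads it had reads at 9 of 10 on the 5′ side and at 2 of 7 on the 3′ side, and without junction-named clusters at 6 of 7 and 2 of 7. The median listed log2 ratio was 2.09 on the 5′ side (1.32 to 3.46) and 3 on the 3′ side (2.12 to 5.04). At 17 of the 19 clusters on the 3′ side untagged reads were 0, and there the ratio is fixed by the cluster's own reads. The medians therefore do not compare measured folds. Median reads were 16 and 7. The division was drawn after the values were seen, neighbouring clusters can share reads, and no test was made. The GRCm38 table places 3 small RNA genes within Ncl, the small nucleolar RNA genes Snora75 and Snord82 and a predicted miRNA gene, Gm24148, and their positions relative to these clusters were not determined.

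**Figure D3:**
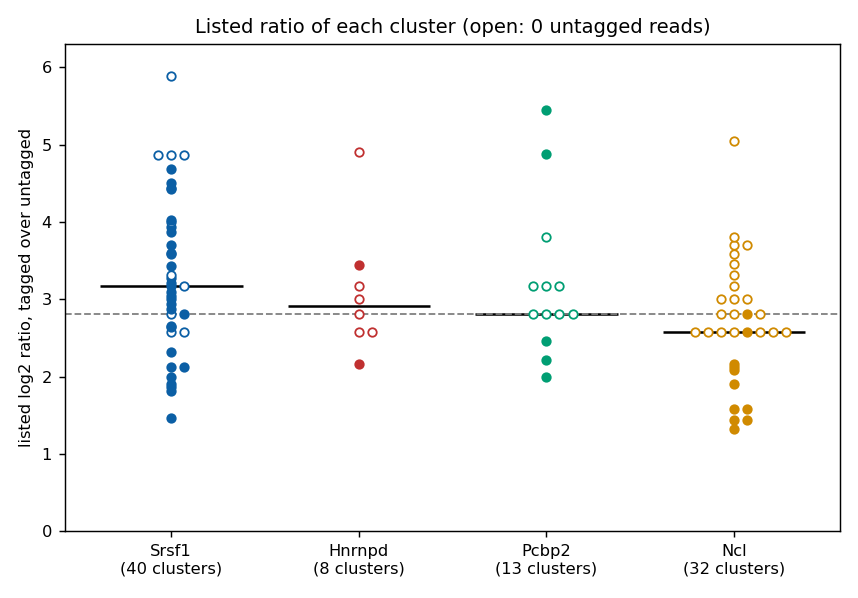
Listed log2 ratio of tagged to untagged reads (vertical axis) for each cluster of the 4 genes; open circles had 0 untagged reads, black bars are the gene medians (3.17, 2.91, 2.81 and 2.58), and the dashed line is the median of all tagged-list clusters, 2.81. The ranges of all 4 genes overlap, and the lowest values, down to 1.32, belong to clusters with untagged reads.

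The listed ratios of the 4 genes overlapped. The median log2 ratio was 3.17 in Srsf1 (95% interval 2.81 to 3.6), 2.91 in Hnrnpd (2.17 to 4.91), 2.81 in Pcbp2 (2.46 to 3.81) and 2.58 in Ncl (2.58 to 3), beside 2.81 over all tagged-list clusters. Against 0 reads this ratio is fixed by the cluster's own reads, so the medians of Hnrnpd, Pcbp2 and Ncl, where most clusters had 0 untagged reads, are not measured folds. A log2 ratio of 3 or more was listed for 38.7% of all tagged-list clusters. In the 4 genes it was listed for 24 of 40 clusters in Srsf1, 4 of 8 in Hnrnpd, 6 of 13 in Pcbp2 and 11 of 32 in Ncl. The listing and the choice of genes both used these values. The intervals of the medians describe spread over clusters taken as independent, though neighbouring clusters can share reads.

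Among Srsf1 clusters of 10 or more reads, the ratio was higher in those of more reads. A cluster's own reads are the numerator of the ratio, so part of this is built in. Srsf1 clusters of 10 to 19 reads had a median log2 ratio of 2.06 (8 clusters), those of 20 to 49 reads 3.19 (18) and those of 50 or more 4.43 (9). Over the whole tagged list the medians in these ranges were 2.66, 2.94 and 1.37. The other genes had few clusters of this size. The 2 Pcbp2 clusters of 50 or more reads had 4.88 and 5.45, against 2.46 for its 1 cluster of 20 to 49 reads. In Hnrnpd the cluster of 50 or more reads had 3.44 and that of 20 to 49 reads 4.91, and in Ncl these were 2.58 and a median of 3.92 (2 clusters). The Hnrnpd cluster at 4.91 and 1 of those 2 Ncl clusters had 0 untagged reads, so no order can be read from these values. Among clusters of 5 to 9 reads the median was 2.81 in all 4 genes and in the whole list, where it is set by the read number.

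The exact interval of the depth-adjusted ratio lay above 1 for 46.2% of all tagged-list clusters. It did so for 35 of 40 Srsf1 clusters, 4 of 8 in Hnrnpd, 9 of 13 in Pcbp2 and 16 of 32 in Ncl. For the others, an excess of the tagged library was not detectable at this depth. They included all 11 clusters of 5 reads against 0, of which Ncl had 7, Srsf1 and Hnrnpd 2 each and Pcbp2 0. With the depth factor, 5 reads against 0 gave an interval that began at 0.611.

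The share of a cluster's reads at its highest position was examined in clusters of 20 or more reads, and at most 50% was called spread. Of all tagged-list clusters of this size 56.4% were spread, and of those in the 4 genes 17 of 27 were in Srsf1, 3 of 3 in Pcbp2, 3 of 3 in Ncl and 0 of 2 in Hnrnpd. The other 12 lay between 50% and 75%, and 0 of the 35 exceeded 75%, beside 27.4% of all tagged-list clusters of this size.

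The lowest and highest shares were both in Srsf1. The cluster at 87864919 to 87864964 had 76 of 102 reads, or 74.5%, at 1 position. Its neighbour at 87864974 to 87864999, with 58 reads, had 5 of them, or 8.62%, at the highest position. The tallest Srsf1 cluster had 102 of 293 reads (34.8%) at 1 position. In Pcbp2 the cluster of 176 reads had 35.2% there and that of 130 reads 14.6%. The Hnrnpd clusters of 29 and 97 reads had 69% and 56.7%.

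**Figure D4:**
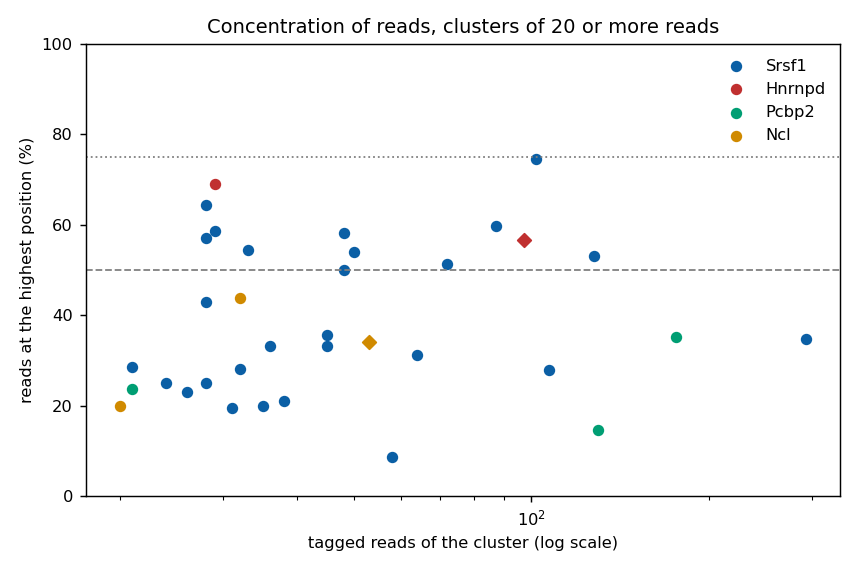
Share of reads at the highest position (vertical axis, %) against tagged reads (horizontal axis, log scale) for the 35 clusters of 20 or more reads; diamonds are named by a junction, the dashed line marks 50% and the dotted line 75%. No point lies above the dotted line, and both Hnrnpd points lie above the dashed one.

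Cluster names and lengths differed between the genes. The authors' classes region B, C1 and C2 are not explained in the sources used here. Region C2 made up 34 of 40 Srsf1 clusters (85%), 19 of 32 in Ncl (59.4%), 6 of 13 in Pcbp2 (46.2%) and 1 of 8 in Hnrnpd (12.5%), against 42% of the tagged list. Region B made up 62.5% of Hnrnpd clusters, 18.8% in Ncl, 15.4% in Pcbp2 and 7.5% in Srsf1, against 49.1%. The 3 region B clusters of Srsf1 were the first cluster of the gene, the first of the block and the last of the gene. Many clusters joined several named regions. In Srsf1, 22 of 40 did, and the longest, 91 nt at 87863439 to 87863529, joined 6 names. The longest Ncl cluster without a junction name, 71 nt at 88247989 to 88248059, had 14 tagged and 2 untagged reads. The longest of Pcbp2, 49 nt at 102329270 to 102329318, had 11 and 1. All Hnrnpd clusters without a junction name were 26 nt long. Clusters of 26 nt, which made up 79.5% of the tagged list, were 57.5% in Srsf1, 56.2% in Ncl, 38.5% in Pcbp2 and 87.5% in Hnrnpd.

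Clusters named by a splice junction occurred in 3 of the 4 genes. In the whole tagged list 0.326% of clusters, or 38, had such names, and 7 of the 38 were in Pcbp2 (3), Ncl (3) and Hnrnpd (1). Srsf1 had 0 among its 40 clusters. The names give 2 positions and the number 45. Read as a gap between the 2 positions, 17 of the 38 clusters lay inside their own gap. Read with a flank of 45 nt after the left position, 19 lay left of the gap, 15 right of it and 4 across it, and 0 ended inside it. The second reading was adopted after this was seen, and it shortens each gap by 45 nt.

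The Hnrnpd junction cluster had the most reads of the 38, 97 against 5 untagged reads, a depth-adjusted ratio of 12.9 (exact interval 5.35 to 40.7). It ran from 100390124 to 100391560 across a gap of 1181 nt (100390353 to 100391533), with 229 nt of cluster on the left and 27 nt on the right in genome order. Other Hnrnpd clusters overlapped this cluster at its ends, that of 29 reads overlapping its left edge and that of 17 reads starting 14 nt from the right side of the gap. None lay inside the gap.

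Ncl had 2 distinct junctions. That with a gap of 907 nt, 88251720 to 88252626, was named by a cluster of 53 reads against 5 on the right, the second highest count of the 38, and by a cluster of 17 reads against 3 on the left. Their ratios were 7.06 (2.84 to 22.6) and 3.78 (1.09 to 20.1). The other, with a gap of 704 nt from 88248069 to 88248772, was named by a cluster of 18 reads against 4, with a ratio of 3 and an interval of 0.988 to 12.2 that includes 1. Clusters without junction names lay within 9 nt of both sides of this gap.

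Pcbp2 had 2 distinct junctions with few reads. The gap of 498 nt from 102318709 to 102319206 was named by clusters of 6 and 8 reads on its 2 sides, and that of 937 nt from 102319246 to 102320182 by a cluster of 8 reads. The untagged library had 0 reads at all 3. The 2 gaps were separated by 39 nt, positions 102319207 to 102319245. Read from the 2 positions in the names alone, they would overlap by 6 nt. The adopted reading does not keep all clusters out of both gaps. The junction-named cluster at 102319209 to 102319251 runs past the start of the gap of 937 nt. A cluster without a junction name, at 102319197 to 102319222, starts inside the gap of 498 nt.

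**Figure D5:**
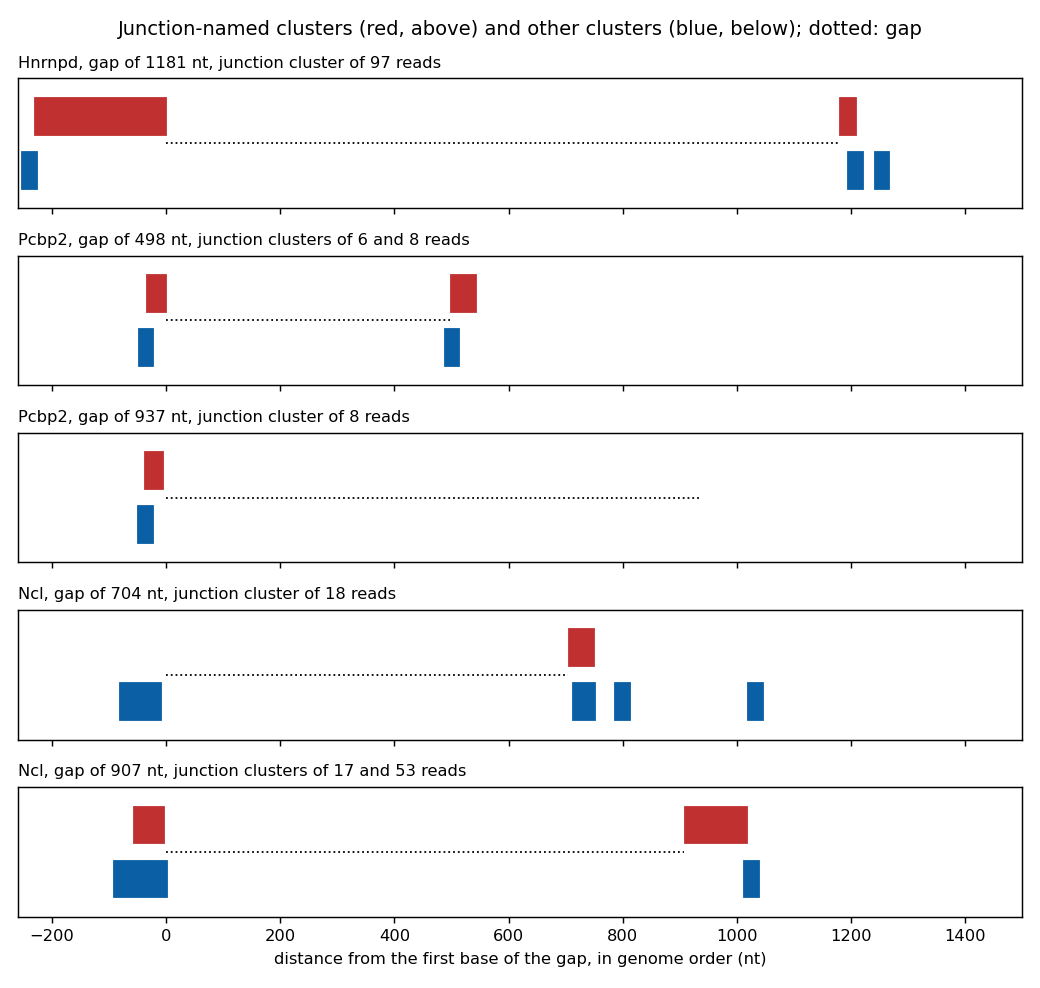
The 5 junctions of Hnrnpd, Pcbp2 and Ncl in genome order, with distance from the first base of the gap (horizontal axis, nt), the gap as a dotted line, junction-named clusters in red above and other clusters in blue below. Red bars lie at the gap edges, and the nearest blue bars lie within 22 nt of both ends of the gap of 498 nt and within 9 nt for that of 704 nt, but 226 nt from the left end of the gap of 1181 nt and 106 nt from the right end of that of 907 nt.

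Most junction-named clusters repeated the values of another cluster. Of the 7, 5 had the same reads, ratio and p as an overlapping cluster without a junction name. Those of 97 reads in Hnrnpd and 53 in Ncl did not, and each had more reads than the clusters that overlapped it. The gaps in the 4 genes, 498 to 1181 nt, fell within the 86 to 16454 nt of the other 29 distinct junctions of the tagged list. The other 31 junction-named clusters had 5 to 35 reads.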

How the data were processed

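iCLIP was made from 1 tagged and 1 untagged library, and the authors deposited 1 list of read clusters per library, each enriched over the other. Build mm9 is per the submitters' processing notes; for the aligner, cluster caller and duplicate handling, these sources give nothing. The deposited columns hold read counts and joined values without headers. Their meaning was inferred: own reads, log2 ratio after adding 1 to each library, one-sided exact binomial p, and reads at the highest position.

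Untagged reads were the whole number that gave back the listed ratio (tolerance 0.006) and p (0.0001, or 0.001 relative for smaller p). This succeeded for 100% of tagged-list clusters, with several candidates at 5, none of them in the 4 genes. On simulated data for the tagged list, 100% of 7313 clusters were recovered, a check of the arithmetic, not of what the columns mean. Of 3381 recovered numbers from 1 to 60, 0 were 1 above a multiple of 3; among factors from 1.2 to 3, those between 1.5 and 1.502 fitted, and their midpoint was used. Ratios are own over untagged reads divided by this factor, with Clopper-Pearson intervals that cover counting error only. Shares of clusters also have Clopper-Pearson intervals, and median intervals are from binomial order statistics. The intervals of shares and medians take the clusters of a gene as independent, though neighbours can share reads. They hold no error between libraries. Python 3.11.15, SciPy 1.17.1 and matplotlib 3.10.9 were used.

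The members, windows and alternatives were chosen with earlier results of these data known. Within each gene, the clusters with the lowest p and the most reads, the longest cluster, the densest stretch and junction-named clusters were to be named. Others named were chosen after their values were seen. Other RNA-processing genes were not analysed here, because no mm9 annotation was used.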

Additional observations from a re-analysis of the deposited data

How the results depend on the processing

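Of 82 alternatives, 65 kept a count within 1.5 times its value, or a share, median or ratio within its 95% interval. The other 17 moved further, and none reversed. That none reversed says little, since counts and shares have no sign. The listed log2 ratios of the tagged list were all 0.09 or more. For the median share at the highest position, Hnrnpd had 2 clusters and Pcbp2 and Ncl 3 each, so their range stood in for the interval. The lowest-p Ncl cluster had 0 untagged reads, so its value of 7.11 is that over the floor and has no upper limit. Without the depth factor and with 1 added to each count it was 33, counted as kept only for lack of that limit. Most moves follow from fewer small clusters entering. With only clusters at or below the tagged list's median p, 5 remained in Hnrnpd, 8 in Pcbp2 and 17 in Ncl. With at least 10 reads, 3, 6 and 17 remained, Pcbp2 kept 0 junction-named clusters, the share with 0 untagged reads fell to 33.3% in Hnrnpd, 16.7% in Pcbp2 and 35.3% in Ncl, and the Ncl median share at the highest position became 45.5% from 34%. With at least 20 reads, an alternative partly added after seeing the data, the share with 0 untagged reads was 0% in Pcbp2 (3 clusters) and 33.3% in Ncl (3 clusters), and the Pcbp2 median log2 ratio was 4.88. Joining only touching clusters gave 40 stretches in Srsf1 and 10 in Pcbp2, and taking 1 cluster a stretch gave 75% of 4 Srsf1 clusters with 0 untagged reads. Leaving out junction-named clusters, also added later, moved no value beyond its limits, but the lowest-p cluster of Hnrnpd became that of 29 reads against 0. Its value of 6.44-fold over the floor of 3 untagged reads then stood in place of a ratio of 12.9. No paired analysis was possible because there was 1 tagged and 1 untagged library. The depth limits clusters of few reads, where 5 against 0 cannot be told from an equal level.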
